A study of Arabidopsis thaliana with 4 samples.

Results

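Described here are the Arabidopsis transcripts whose signal was higher in the first repeat than in the second repeat of a seedling experiment, in both genotypes that were compared. On a log2(signal + 16) scale, a member had a first minus second repeat difference of at least 1, about 2-fold, in 35S:AtRALF1 seedlings and also in control seedlings. The rule took in 295 of 22746 probe sets, 1.30% of those on the array once the manufacturer's controls were left out. The same rule turned round, with the second repeat higher, took in 156. As the members were chosen on these differences, the differences are described below and were not tested.

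After 48 h of cold treatment at 4 °C, plates stood upright for 1 week at 24 °C under days of 16 h. The light was 150 µE, and each genotype had 4 plates of 200 seeds. RNA of whole seedlings was then hybridised to 4 Affymetrix arrays, 1 for each genotype and repeat. The 35S:AtRALF1 arrays hold RNA of 2 transgenic lines mixed in equal parts, in which AtRALF1, the precursor of a secreted peptide that restrains cell elongation, is driven by the 35S promoter of cauliflower mosaic virus, a strong promoter active in most tissues. The control arrays hold an equal mixture of wild-type RNA and RNA of plants carrying the empty pART27 vector. The labels call the arrays of a group its 1st and 2nd repeat, without stating if plants, harvests or hybridisations were repeated. The hour of harvest was not given in the sources used here. AtRALF1 itself was not analysed here, because no probe set carries its name.

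The values are linear signal intensities that the authors had scaled. In every array the mean without the highest and lowest 2% was 125.0, and the median over all probe sets lay between 42.0 and 50.5. Signals below 28.5 to 34.6, depending on the array, lie in its lower 40%, and 105 of the 295 members (35.6%) were that dim in the second repeat of both genotypes. The ratio of the 3′ to the 5′ signal of 3 housekeeping transcripts, which is higher in more degraded RNA, was also higher in the first repeat for most of them. For ubiquitin it was 3.1 in the first and 1.90 in the second repeat of 35S:AtRALF1, and 2.77 and 2.07 in control. For GAPDH it was 2.35 and 1.5 in 35S:AtRALF1, and 2.09 and 1.51 in control, whereas for actin it was 6.44 and 6.90 in 35S:AtRALF1 and 6.51 and 3.55 in control. In a second series of such probe sets, marked r2, it was higher in the first repeat for all 3 transcripts in both genotypes, with 2.85 and 2.07 in 35S:AtRALF1 and 2.13 and 1.46 in control for actin. The part of RNA quality in the repeat difference was not tested.

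Many plant transcripts follow the hour of the day. A circadian clock made of morning and evening genes that repress one another sets their timing, and light, sugar and temperature act on the same promoters. Chlorophyll synthesis, starch turnover, cold tolerance and glucosinolate synthesis are among the processes whose transcripts are known to cycle in leaves. Chlorophyll synthesis is held at the light-requiring reduction of protochlorophyllide, the step that PORB carries out.

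A gene of chlorophyll synthesis and a clock-controlled gene had the largest repeat differences by the mean of both genotypes, though not within each genotype alone. PORB, a protochlorophyllide oxidoreductase, gave a first-repeat signal of 2227.7 and a second-repeat signal of 87.6 in 35S:AtRALF1, against 1655.2 and 125.6 in control. The first repeat was thus 25.4-fold above the second in 35S:AtRALF1 and 13.2-fold in control, and by the mean of both log2 differences (4.00) PORB ranked 1 among all probe sets. CCL, whose short-lived mRNA is under the control of the clock, ranked 2. Its signals were 2811.8 and 163.2 in the first and second repeat of 35S:AtRALF1, and 875.0 and 99.2 in control. For both genes the first repeat of either genotype was far above the second repeat of either genotype, with no overlap. The rule that chose the members makes such a separation likely, so nothing is read from it here or in the genes below.

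**Figure D1:**
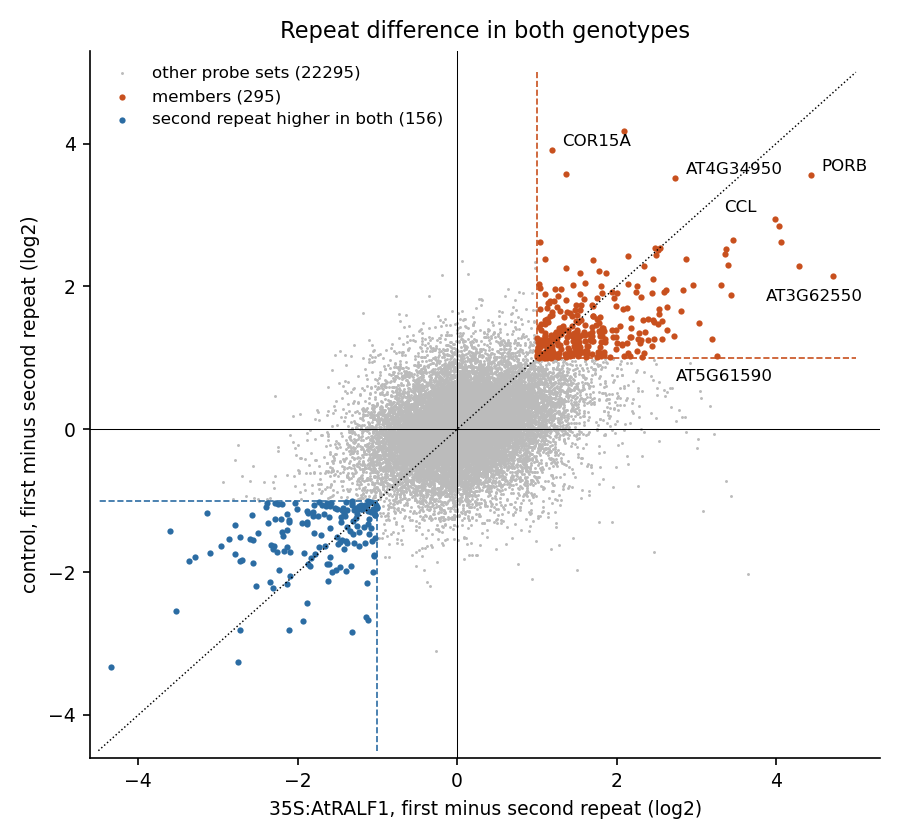
First minus second repeat on the log2(signal + 16) scale in 35S:AtRALF1 (horizontal axis) and in control (vertical axis), 1 point per probe set. Dashed lines mark the threshold of 1 that chose the 295 members (orange, upper right) and the 156 probe sets of the opposite rule (blue, lower left), and the dotted line marks equal differences; PORB and CCL lie at the far end, and COR15A and AT3G62550 far to either side of the dotted line.

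Most of the members differed far less than these. The median first minus second difference was 1.52 in 35S:AtRALF1 (range 1.00 to 4.71) and 1.33 in control (1.00 to 4.17). The mean of both differences was under 1.5 in 157 members, at least 2 in 45 and at least 3 in 9. The median signal of the members was 175.5 in the first repeat and 40 in the second in 35S:AtRALF1, and 172.6 and 46.5 in control. By their medians the members were thus brighter than the typical probe set in the first repeat, and near it in the second.

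The threshold cut through a continuous range of values, and the number of members was 844 with an offset of 1 and 95 with an offset of 64. Just inside it were 3 unnamed probe sets whose smaller difference was 1.00. Just outside it were AT5G35640, with 1.38 in 35S:AtRALF1 and 0.997 in control, AT5G05090, with 1.21 and 0.996, and AT1G75900, with 1.14 and 0.993.

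The repeat differences of the 2 genotypes, which share no array, ran together. Over all probe sets the 2 differences had a Pearson correlation of 0.39, a description across genes, which are not independent replicates. A difference of at least 1 was reached by 6.84% of all probe sets in 35S:AtRALF1 and by 3.37% in control. Of the 766 probe sets chosen on the control arrays alone, 295 (38.5%) reached 1 in the 35S:AtRALF1 arrays as well, and 13 reached 1 in the opposite direction. Of the 1556 chosen on the 35S:AtRALF1 arrays alone, 295 (19.0%) reached 1 in control, and 23 were opposite.

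A single gene was named for 143 of the 295 members, 6 listed several genes and 146 had no gene named here. Of the 143 genes, 113 carry only a locus number. The rest of the description is of the named genes, which are therefore not a full account of the set.

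The other named members with the largest differences were of varied function. AT1G70820, a putative phosphoglucomutase, had signals of 305.4 and 3.6 in 35S:AtRALF1 and 300.1 and 27.9 in control, in the first and second repeat. AT2G29670, a tetratricopeptide repeat protein, had 1243.0 and 59.5 in 35S:AtRALF1 and 474.0 and 63.8 in control. AT4G34950, a membrane protein of the major facilitator family, had 147.7 and 8.6 in 35S:AtRALF1 and 190.4 and 2.1 in control. The second-repeat signals of AT1G70820 and AT4G34950 lie in the dimmest part of the range, so the size of their fold changes is poorly fixed, although their first-repeat signals were well above the median of the arrays.

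AT3G15570 belongs to the family of NPH3, a protein of phototropism, the bending of shoots towards blue light. It had 105.0 and 5.1 in 35S:AtRALF1 and 102.8 and 4.8 in control, the most even pattern of the 20 named members with the largest differences. AT1G56300, a DnaJ-domain protein, had 279.8 and 24.4 in 35S:AtRALF1 and 226.1 and 30.3 in control. In both genes the genotypes nearly coincided within a repeat, while the repeats lay far apart.

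**Figure D2:**
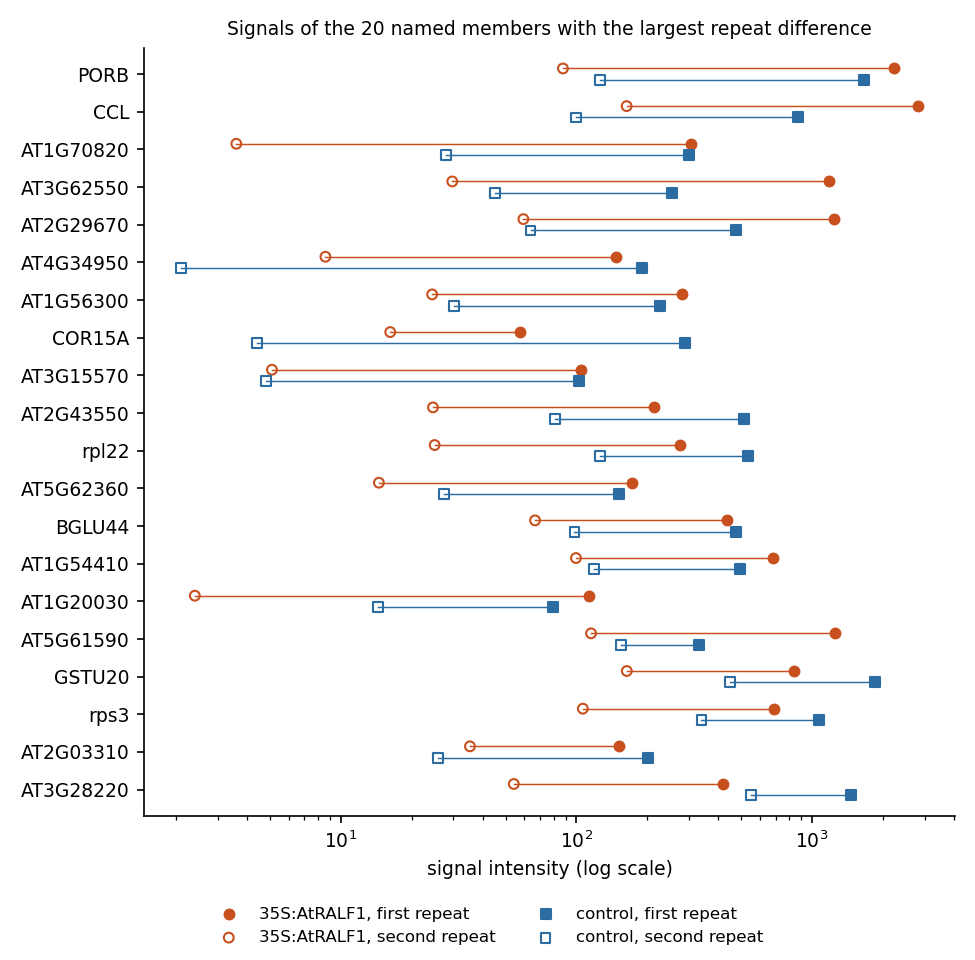
Signal intensity (log axis) of the 20 named members with the largest mean repeat difference, in the order of that difference from the top. Circles are 35S:AtRALF1 and squares control, filled for the first repeat and open for the second; in every gene both filled symbols lie to the right of both open ones except AT3G28220, where the first repeat of 35S:AtRALF1 (420.1) lies below the second repeat of control (549.5).

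Few genes of the clock itself were measured under their own name. Of 14 morning clock genes on a list, 1 was measured under its own name, and of 12 afternoon and evening genes also 1. GI (GIGANTEA), a clock component whose transcript peaks late in the light period, was a member, with signals of 267.9 and 119.5 in the first and second repeat of 35S:AtRALF1 and 236.7 and 95.4 in control. AT5G52660, a MYB-like factor of the REVEILLE family whose transcript peaks around dawn, went the other way, with 102.1 and 188.5 in 35S:AtRALF1 and 96.5 and 164.6 in control. GI was thus higher by 1.07 and 1.18 in the first repeat on the log2 scale, in 35S:AtRALF1 and in control, and AT5G52660 was lower, by differences of -0.79 and -0.68. GI and AT5G52660 therefore moved in opposite directions between the repeats, by a similar amount in both genotypes. They are single genes, and GI was chosen by the rule for its direction. The part of the hour of harvest in the repeat difference was not tested.

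Of 13 genes driven by the clock, 2 were measured. CCL was a member, and AT1G69570, a DOF factor of the CDF family that is highest in the morning, was not, with 41.9 and 29.0 in 35S:AtRALF1 and 43.3 and 67.4 in control. Its repeats differed in opposite directions in the 2 genotypes, at signals near the median of the arrays.

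AT5G61590 encodes DEWAX, a repressor of wax synthesis whose transcript is known to be higher in the dark. Its signals were 1245.0 in the first and 115.3 in the second repeat of 35S:AtRALF1, and 331.9 and 155.0 in control. It entered the set narrowly in control, where its difference was 1.02, against 3.26 in 35S:AtRALF1.

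Chlorophyll synthesis was the list with the most measured genes, 8 of 25, and 2 of these were members. HEME1, a uroporphyrinogen decarboxylase early in the branch to haem and chlorophyll, had 480.4 and 195.8 in 35S:AtRALF1 and 505.5 and 235.9 in control. HEME2, the second gene for this enzyme, missed the threshold with differences of 0.80 in 35S:AtRALF1 and 0.71 in control. CHLI2, a subunit of the magnesium chelatase, reached it only in 35S:AtRALF1, with 1.48, against 0.59 in control.

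The other chlorophyll genes differed less or ran the other way. CHLM, a methyltransferase of the magnesium branch, differed by 0.65 in 35S:AtRALF1 and 0.12 in control. AT1G74470, the geranylgeranyl reductase that makes the phytol tail, had some of the strongest signals of the list, from 4288.4 to 5884.9, and differed by 0.15 in 35S:AtRALF1 and 0.29 in control. HEMB1, an aminolevulinate dehydratase, ran the other way, with -0.49 in 35S:AtRALF1 and -0.28 in control, and GSA1, which makes aminolevulinate, differed by -0.27 in 35S:AtRALF1 and 0.23 in control. Over the 8 genes the median difference was 0.72 in 35S:AtRALF1 and 0.44 in control, beside 0.04 and 0.03 over all probe sets. In the first repeat 6 of 8 were higher in both genotypes, PORB and HEME1 by the rule. The rule thus raised both the medians and this count. The share higher in both genotypes was not taken over all probe sets, so nothing is read from them. The difference of PORB was far above those of the 7 other measured genes of its pathway.

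Light-harvesting and Rubisco genes, markers of green tissue, did not join the set. Of 20 listed, 3 were measured. The difference was 0.29 in 35S:AtRALF1 and 0.55 in control for LHCB4.1, -0.05 and 0.10 for LHCB4.2, both antenna proteins of photosystem II, and -0.06 and 0.15 for RCA, the Rubisco activase. Of 38 light signalling genes 2 were measured, and neither was a member. HYH, a bZIP factor that promotes light responses, was lower in the first repeat, with 45.7 and 92.6 in 35S:AtRALF1 and 73.6 and 155.4 in control. FHL, which carries phytochrome A to the nucleus, had 43.7 and 50.0 in 35S:AtRALF1 and 42.1 and 5.2 in control.

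**Figure D3:**
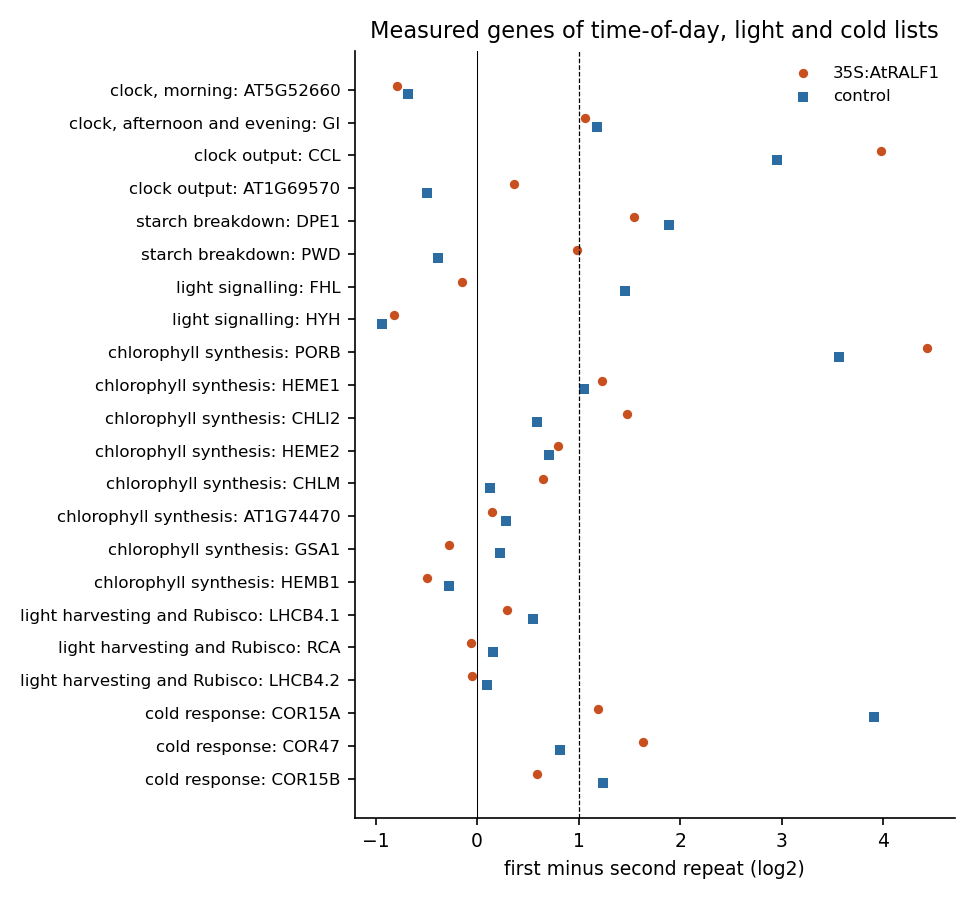
First minus second repeat (log2 scale) of each measured gene of 8 lists, with 35S:AtRALF1 as circles above control as squares; the solid line is 0 and the dashed line the threshold of 1. PORB, HEME1, CCL, GI, DPE1 and COR15A lie to the right of the dashed line in both genotypes, and AT5G52660, HYH and HEMB1 to the left of 0 in both.

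Other plastid proteins encoded in the nucleus were members. PIFI, a chloroplast protein named for its effect on chlorophyll fluorescence after illumination, had 1161.4 and 349.2 in 35S:AtRALF1 and 876.5 and 251.2 in control. AT1G51110, a plastid fibrillin, had 137.1 and 28.3 in 35S:AtRALF1 and 208.1 and 59.0 in control. AT5G02940, an ion channel of the plastid envelope, and MRL7-L, a chloroplast protein, had first-repeat signals from 120.5 to 172.6 over both genotypes and second-repeat signals from 23.5 to 59.5.

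The members included genes of starch synthesis and of starch breakdown. DPE1, the chloroplast enzyme that recycles short glucans as starch is broken down at night, had 98.2 and 23.2 in 35S:AtRALF1 and 104.8 and 16.6 in control. SBE2.2, a starch branching enzyme, had 255.7 and 68.4 in 35S:AtRALF1 and 219.8 and 83.9 in control. AT5G39790, the PTST protein that brings starch synthase to the granule, had 63.1 and 16.8 in 35S:AtRALF1 and 82.7 and 31.8 in control. In all 3 both first-repeat signals lay above both second-repeat signals, which the rule makes likely. PWD, a kinase that primes starch for breakdown, was no member, with differences of 0.98 in 35S:AtRALF1 and -0.39 in control. It was the only other gene measured of 13 on the starch breakdown list.

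The cold-regulated gene COR15A was the member in which the repeat difference was larger in control by most. COR15A, a chloroplast protein that protects membranes during freezing, had 57.4 and 16.2 in 35S:AtRALF1 and 290.1 and 4.4 in control. Its first-repeat signal in control was above the other 3 by a wide margin. COR15B, a close copy of it, had 53.6 and 30.4 in 35S:AtRALF1 and 84.1 and 26.3 in control, and COR47, a dehydrin, had 590.6 and 178.8 in 35S:AtRALF1 and 482.9 and 268.0 in control. Neither was a member, although all 3 measured genes of 12 on the cold list were higher in the first repeat in both genotypes, COR15A by the rule. Of all probe sets, 53.2% were higher in the first repeat in 35S:AtRALF1 and 52.6% in control, each genotype taken alone. As close copies, COR15A and COR15B may share signal.

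Other genes linked to cold or drying were more even between the genotypes. AT1G54410 encodes the small dehydrin HIRD11, with 682.3 and 99.5 in 35S:AtRALF1 and 495.5 and 119.0 in control. AT4G30660, a small membrane protein of the low-temperature and salt-responsive family, had 471.0 and 127.9 in 35S:AtRALF1 and 499.8 and 128.7 in control. AT4G30650, the next gene on the chromosome and of the same family, had 227.9 and 65.1 in 35S:AtRALF1 and 214.0 and 49.2 in control.

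Genes of glucosinolates and defence made up a group of 10 members. These groups by role were formed after the values were seen, for 48 of the 143 named members, and are a guide to functions only. BCAT4, which starts the lengthening of methionine for aliphatic glucosinolates, had 537.7 and 165.8 in 35S:AtRALF1 and 1210.8 and 279.5 in control. GSTU20, a tau-class glutathione transferase, had 839.4 and 163.5 in 35S:AtRALF1 and 1843.9 and 447.6 in control. In the first repeat both were more than 2-fold lower in 35S:AtRALF1. AT2G25450, a dioxygenase that modifies glucosinolate side chains, had 1260.8 and 385.1 in 35S:AtRALF1 and 1380.0 and 568.4 in control. NAI2, which forms the endoplasmic reticulum bodies that store β-glucosidases, had 497.2 and 184.2 in 35S:AtRALF1 and 797.5 and 294.2 in control. In these 4 genes each array of 35S:AtRALF1 lay below the control array of the same repeat.

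Of the defence-related members, AT2G43550 and AT2G43530 are defensin-like proteins of one family. AT2G43550 had 213.3 and 24.6 in 35S:AtRALF1 and 513.5 and 81.2 in control. AT2G43530 had 331.7 and 42.4 in 35S:AtRALF1 and 167.7 and 60.6 in control. In the first repeat the 2 therefore stood on opposite sides of control. BGLU44, a β-glucosidase, had 437.1 and 66.7 in 35S:AtRALF1 and 475.3 and 98.0 in control, and AT1G20030, a thaumatin-like protein, had 112.5 and 2.4 in 35S:AtRALF1 and 79.8 and 14.4 in control. PDF1.2, the defensin that marks jasmonate responses, met the opposite rule, with 15 and 51.3 in 35S:AtRALF1 and 15.9 and 187.7 in control.

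Protein folding and redox genes were also present. The 6 members grouped as chaperones were AT1G56300, the Hsp70 co-chaperone Fes1B, the DnaJ proteins ATERDJ2B and ATERDJ3B of the endoplasmic reticulum, AT5G07340, a calnexin, and AT4G16660, an Hsp70 family protein. Their median difference was 1.32 in 35S:AtRALF1 and 1.34 in control, and AT4G16660 stood out by its larger difference in control, with 1.03 in 35S:AtRALF1 and 2.04 in control. By contrast AT3G09440, a cytosolic Hsp70 on the heat list, was lower in the first repeat, with 419.4 and 1293.1 in 35S:AtRALF1 and 995.9 and 1727.9 in control. The only other measured gene of that list, ATHSP22.0, was lower in the first repeat in 35S:AtRALF1 and higher in control. Its signals were 12.3 and 47.2 in 35S:AtRALF1 and 55.5 and 23.8 in control. The universal stress proteins AT3G62550 and AT3G53990 and the glutaredoxins AT4G15660 and AT4G15700 were members. The difference was larger in 35S:AtRALF1 in all 4, but so it was in 67.1% of all members. As this group was formed after the values were seen, nothing is read from it. The glutaredoxins are close copies, and their probe sets may share signal.

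Wall and cytoskeleton members included AT5G62360 and AT5G62350, adjacent genes for inhibitors of invertases and pectin methylesterases. AT5G62360 had 171.4 and 14.5 in 35S:AtRALF1 and 150.9 and 27.3 in control. AT5G62350 was among the brightest members, with 3132.5 and 1211.4 in 35S:AtRALF1 and 2830.0 and 798.0 in control. TUB5, a β-tubulin, had 524.5 and 158.3 in 35S:AtRALF1 and 475.3 and 202.7 in control, and WLIM1, which bundles actin filaments, had 486.2 and 159.8 in 35S:AtRALF1 and 412.3 and 135.7 in control. AT4G30020, a subtilisin-like protease, had 103.2 and 12.3 in 35S:AtRALF1 and 107.3 and 22.5 in control. In all 5 genes both first-repeat signals lay above both second-repeat signals, which the rule makes likely. Among the 143 named members there were 5 pairs of neighbouring genes: besides this pair and AT4G30650 with AT4G30660, they were AT1G70810 with AT1G70820, AT4G32330 with AT4G32340, and rps3 with rpl22. The measured genes formed 5882 adjacent pairs in all. No expected number of member pairs was taken, so nothing is read from this count.

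Transcription factors were also among the members. BHLH101, which acts in the iron deficiency response, had 62.4 and 1.9 in 35S:AtRALF1 and 43.6 and 9.8 in control. BZIP34, a bZIP factor, was dim in every array, with 29.9 and 4.7 in 35S:AtRALF1 and 24.2 and 3.1 in control. In both genes the second-repeat signals were near the bottom of the range. Of membrane and lipid genes, AT1G72160, a patellin, had 462.6 and 131.1 in 35S:AtRALF1 and 420.6 and 130.0 in control, and AT4G09760, of the choline kinase family, had 187.7 and 26.0 in 35S:AtRALF1 and 149.1 and 48.9 in control. The cation exchanger CHX16 had 47.7 and 3.8 in 35S:AtRALF1 and 48.4 and 7.8 in control. AT2G03310, whose function is not stated here, had 151.2 and 35.3 in 35S:AtRALF1 and 200.5 and 25.9 in control. In each of these genes both first-repeat signals lay above both second-repeat signals, which the rule makes likely.

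rps3 and rpl22 are genes of the plastid genome, for proteins of the plastid ribosome, and lie in one operon. rpl22 had 275.9 and 25 in 35S:AtRALF1 and 534.8 and 126.2 in control. rps3 had 688.7 and 106.4 in 35S:AtRALF1 and 1067.8 and 339.1 in control. In both, 35S:AtRALF1 was below control in either repeat. A further 2 member probe sets each list both inverted-repeat copies of a plastid gene and are not named. The next gene of the operon, rps19, missed the threshold in control, with differences of 1.22 in 35S:AtRALF1 and 0.96 in control, as did rpoA at its far end, a subunit of the plastid RNA polymerase, with 1.2 in 35S:AtRALF1 and 0.86 in control. On the other side of rps3, rpl16 differed by 0.62 in 35S:AtRALF1 and -0.22 in control and rpl14 by 0.25 and -0.47, at signals of at most 37.5. Between rpl14 and rpoA, rpl36 differed by 0.91 in 35S:AtRALF1 and 0.88 in control. The 15 measured ribosomal protein genes of the plastid did not move together: 5 were higher and 4 lower in the first repeat in both genotypes, with rps4 at -2.57 in 35S:AtRALF1 and -0.52 in control.

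The rest of the plastid genome mostly went the other way. Of 69 plastid genes measured under a name of their own, 46 were lower in the first repeat in both genotypes and 10 higher in both. The median difference was -0.61 in 35S:AtRALF1 and -0.41 in control, beside 0.04 and 0.03 over all probe sets. By the opposite rule 12 were chosen, all of them outside the 15 ribosomal protein genes. Among these 12 were psaA, for a core protein of photosystem I, with 36.8 and 304.8 in 35S:AtRALF1 and 78.8 and 258.5 in control, and atpA, for the ATP synthase, with 327.0 and 2027.9 in 35S:AtRALF1 and 709.4 and 1646.5 in control. As plastid genes are transcribed in shared units, they are not independent of one another.

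**Figure D4:**
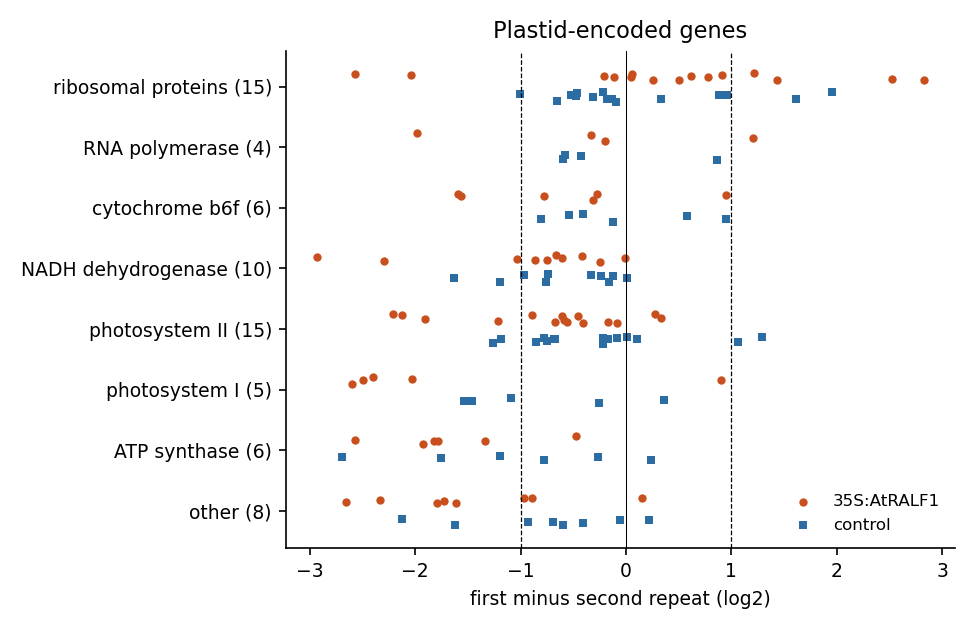
First minus second repeat (log2 scale) of 69 plastid-encoded genes by function, with the number of genes in brackets; circles are 35S:AtRALF1, drawn above control as squares, and dashed lines mark 1 and -1. The rightmost points are rpl22 and rps3, at 2.83 and 2.53 in 35S:AtRALF1, while most genes of photosystem I and the ATP synthase lie to the left of 0.

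Root markers were not part of the set. Of 10 root markers 3 were measured, none of them a member. PYK10, an abundant β-glucosidase of roots, differed by 0.48 in 35S:AtRALF1 and 0.21 in control, while the root-hair expansins EXPA7 and EXPA18 differed by -0.20 and -0.26 in 35S:AtRALF1 and by -0.65 and 0.39 in control. None of the seed storage genes was measured under its own name. Over all 25 lists, 36 of 297 listed genes were measured and 6 of them were members: PORB, HEME1, CCL, GI, DPE1 and COR15A. In whole seedlings, fewer cells of a type and less RNA per cell cannot be told apart.

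The size of the repeat difference was larger in 35S:AtRALF1 in 198 of the 295 members (67.1%) and larger in control in 97. The median of the difference in size, 35S:AtRALF1 minus control, was 0.19 (range -2.72 to 2.57), beside 0.02 over all probe sets, of which 51.4% were larger in 35S:AtRALF1. The repeat differences of 35S:AtRALF1 were also more spread over the whole array, with an SD of 0.63, against 0.51 in control. When each genotype's differences were divided by that SD, 122 of the 295 members were larger in 35S:AtRALF1, so that the majority turned round. With 1 array per genotype and repeat there is no residual spread, and the difference in size could not be tested.

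In 192 members the sizes were within 0.5 of each other. The same count was not taken over all probe sets, so this closeness cannot be called particular to the members. The SD of the difference in size was 0.62 over the members and 0.64 over all probe sets. The size was larger in 35S:AtRALF1 by at least 1 in 29 members and larger in control by at least 1 in 6. Over all probe sets these shares were 6.30% and 4.77%. As the rule used the same differences, nothing is read from this.

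The named members in which 35S:AtRALF1 had the larger difference by most were AT3G62550, AT5G61590, AT2G29670, AT2G43530 and AT3G28220. AT3G62550, a universal stress protein, had 1182.9 and 29.7 in 35S:AtRALF1 and 254.5 and 45.1 in control. Its first-repeat signal in 35S:AtRALF1 was far above the other 3. Its repeat difference was thus 4.71 in 35S:AtRALF1, the largest of any probe set there, and 2.15 in control. AT2G29670 and AT5G61590 had the same shape, with second-repeat signals close to each other and a first-repeat signal over 2-fold higher in 35S:AtRALF1.

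The named members in which control had the larger difference by most were COR15A, AT4G17470, CYP71B26, AT4G16660 and AT4G34950. COR15A differed by 1.19 in 35S:AtRALF1 and 3.91 in control. AT4G17470, a thioesterase family protein, had 22.4 and 2.7 in 35S:AtRALF1 and 120.5 and 6.2 in control. CYP71B26, a cytochrome P450, had 88.1 and 32.5 in 35S:AtRALF1 and 171.6 and 19.8 in control, and AT4G16660 had 100 and 40.9 in 35S:AtRALF1 and 125.7 and 18.5 in control. In all 5 the second-repeat signals were at most 40.9 in both genotypes, in or near the lower 40% of the arrays.

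The genotype difference itself does not use the contrast that chose the members and could be tested, over all probe sets. No probe set was called in 35S:AtRALF1 against control by limma at an adjusted p of 0.05 (0% of 22746). At an unadjusted p of 0.05, 2.01% of all probe sets were higher and 2.29% lower in 35S:AtRALF1. Of the 295 members none was called, either at the adjusted or at the unadjusted level, and their smallest adjusted p was 0.987. This is partly built in, since without a term for the repeat the large repeat difference of a member is the spread against which its genotype difference is judged. With the repeat as a block, 23 members were higher and 34 lower in 35S:AtRALF1 at an unadjusted p of 0.05, beside 3.23% and 4.02% of all probe sets, and again none passed the adjusted threshold. As the repeat differences that chose the members also set the residual spread of that fit, nothing is read from these counts. With 2 arrays against 2 no exact permutation test can give a p below 0.333.

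By their median the members lay near the middle of all probe sets in this comparison. The median of 35S:AtRALF1 minus control was -0.09 over the members (range -2.50 to 1.38), and 124 of the 295 (42.0%) were above 0. Over all probe sets the median was -0.04, and 43.9% were above 0. The members were more spread, with an SD of 0.58, against 0.37 over all probe sets. With 1 array left out the median over the members was -0.86 without the first and 0.69 without the second array of 35S:AtRALF1, and 0.62 without the first and -0.79 without the second array of control. These shifts follow from the choice of members, since unlike repeats are then compared, and bear on neither the size nor the stability of the genotype difference. By repeat, the median over the members was -0.0040 in the first repeat and -0.16 in the second, beside -0.03 and -0.04 over all probe sets.

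A smaller number of members differed by genotype in both repeats alike. A difference of at least 1 in both repeats was found in 1 member that was higher in 35S:AtRALF1 and in 12 that were lower, beside 0.299% and 0.242% of all probe sets. As a share of the members, the higher count was similar to that of all probe sets and the lower count was larger. No member was called by limma, and these counts were not tested. The 1 higher was AT1G25275, of unstated function, with signals of 2952.7 and 1197.0 in 35S:AtRALF1 and 1138.4 and 495.0 in control. Of the 12 lower, 5 were named: AT3G28220, AT1G13650, AT1G73600, AT2G43550 and GSTU20.

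AT3G28220, of the TRAF-like family, was the most different of these. It had 420.1 and 54.2 in 35S:AtRALF1 and 1469.3 and 549.5 in control, a log2 difference of -2.39 (SE 1.00, n = 2 each, limma adjusted p = 0.987). The first repeat of 35S:AtRALF1 lay below both control arrays, so that the genotypes did not overlap. AT1G73600, a methyltransferase that makes phosphocholine, had 222.7 and 65.9 in 35S:AtRALF1 and 599.2 and 177.1 in control. AT1G13650 had 123.4 and 23.1 in 35S:AtRALF1 and 301.9 and 103.2 in control. In these last 2 the first repeat of 35S:AtRALF1 lay between the control arrays, so that the genotypes overlapped. AT3G20370, also of the TRAF-like family, had 616.0 and 277.6 in 35S:AtRALF1 and 1189.0 and 513.2 in control. These genes and AT1G25275 are the 5 named members with the smallest limma p, and none passed the test.

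PORB and CCL differed in this respect. For PORB, 35S:AtRALF1 was higher by 0.42 in the first repeat and lower in the second, by a difference of -0.45, so that the mean was -0.01 (SE 1.87, limma adjusted p = 1). For CCL it was higher in both, by 1.67 and 0.64, with a mean of 1.15 (SE 1.64, limma adjusted p = 0.992). With 1 array left out, which again sets unlike repeats against each other, PORB ranged from -2.23 to 2.21 and CCL from -0.84 to 3.14, the lowest without the first and the highest without the second array of 35S:AtRALF1. Over the members, 60 were higher in 35S:AtRALF1 in the first repeat and lower in the second, and 20 the reverse. These counts follow the difference in size described above, whose parts the rule used. The share over all probe sets was not taken, so nothing is read from them.

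**Figure D5:**
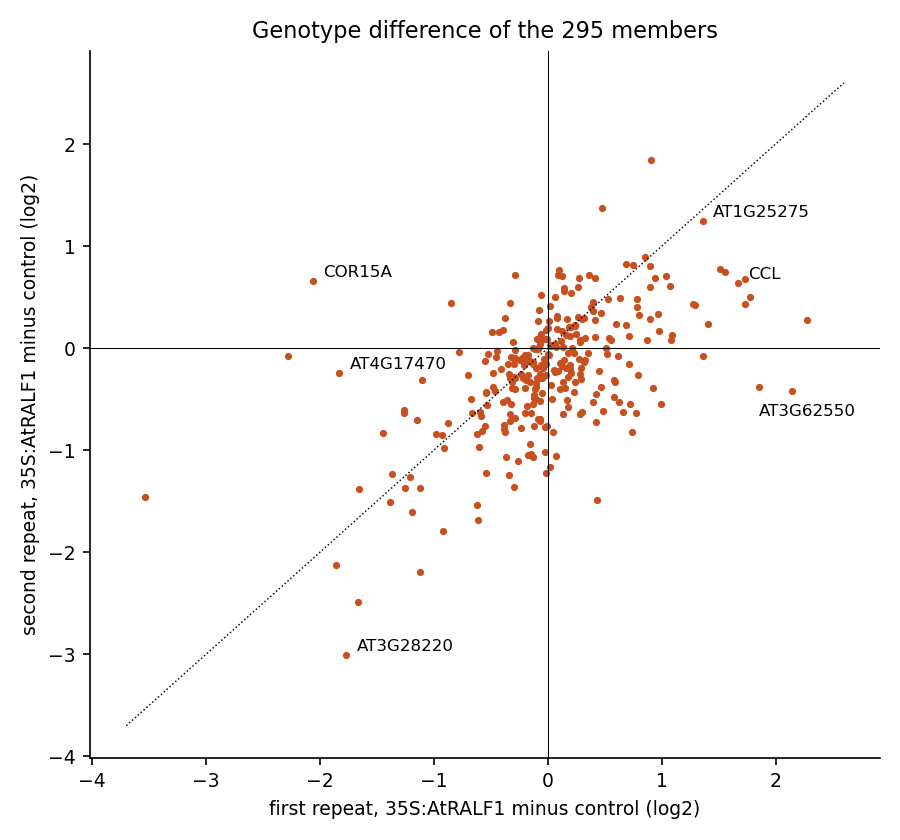
35S:AtRALF1 minus control (log2 scale) of the 295 members in the first repeat (horizontal axis) and in the second repeat (vertical axis); the dotted line marks equal differences. Most members lie near 0, AT3G28220 at the lower left and AT1G25275 at the upper right differ alike in both repeats, and COR15A and AT3G62550 differ by genotype mainly in the first.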

How the data were processed

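Deposited values were used for 4 arrays, 2 per group. Per the labels, RNA was labelled and hybridised by the GeneChip procedure. The deposited intensities, 1 per probe set, had been scaled by the authors with software not given in the sources used here. The number of arrays limits the precision. Of 22810 probe sets, 64 controls were left out. Values under 1 were set to 1, 16 was added and log2 taken, which understates changes of dim genes. Members and gene lists were chosen with earlier results of these data known.

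35S:AtRALF1 and control were compared by lmFit and eBayes of limma 3.58.1 (R 4.3.3), with an intensity trend and 2 residual degrees of freedom. Tests were two-sided, adjusted after Benjamini and Hochberg over 22746 probe sets (threshold 0.05), and the procedure was tested on simulated data. Alternatives were other offsets, normalisations, thresholds and filters, a replicate block, no trend, and each array left out. Tables were handled in Python 3.11.15. As nothing says that the repeats came from separate cultures, the spread behind each p-value is that between these samples only and may be technical.

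The platform's probe table gives 1 gene for 13513 probe sets and several for 503. Of the 13513, 13436 were matched by gene ID to RefSeq (TAIR10.1, names and gene order only). Of several probe sets of a gene on a list, the one with the highest mean was used.

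Genes named are PORB and CCL, the 20 named members with the largest mean difference, list genes that are members, all measured clock and chlorophyll genes, the 5 members at each end of the difference in size, those next to the threshold and the 5 with the smallest limma p. Other names are of measured list genes or were picked with their values in view. A planned search of promoters for motifs was not run, and no sequence was used here.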

Additional observations from a re-analysis of the deposited data

How the results depend on the processing

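The number of members, 295, rested on the offset and the threshold. It was 844 with an offset of 1 and 95 with an offset of 64, and 1155 at 1.5-fold and 52 at 3-fold; all 295 are among the 844 and the 1155, and all of the 95 and the 52 are among the 295. Quantile and cyclic loess normalisation gave 252 and 251 members, 248 of them shared with the 295 in each case, restricting the array to its brightest 60% gave 232, and raising values below 50 to 50 with no offset, added after seeing the data, gave 223, of which 184 were shared. Of the 295, the number with the larger difference in 35S:AtRALF1 was 198, between 178 and 201 under offsets and normalisations, 164 of 232 among the brightest 60%, and 158 with the floor of 50. Divided by the SD of each genotype, also added after seeing the data, it was 122 of 295. The 6 list genes stayed 6 when the probe sets of a gene were averaged.

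For 35S:AtRALF1 against control, limma called 0 probe sets under every alternative except 1 among the brightest 60% and 1 with a replicate block, and no member under any. With the replicate block, at an unadjusted p of 0.05, 23 members were higher and 34 lower in 35S:AtRALF1, beside 3.23% and 4.02% of all probe sets; the smallest adjusted p of a member was 0.659. The deviations of same-numbered arrays from their group means correlated by 0.39, but with only 2 pairs the numbers were not shown to pair the samples. The median over the members, -0.09, ranged from -0.86 to 0.69 when 1 array was left out, the lone array being assumed to vary like the others: 0.69 without the second array of 35S:AtRALF1 and 0.62 without the first of control. PORB, at -0.01, changed sign with an offset of 64 (0.046) and with quantile normalisation (0.069). Without single arrays PORB ranged from -2.23 to 2.21 and CCL from -0.84 to 3.14. Leaving out 1 array sets unlike repeats against each other, so that for genes chosen as higher in the first repeat the direction of these shifts is fixed by the choice; within each repeat CCL was higher in 35S:AtRALF1, by 1.67 and 0.64. The membership rule needs all 4 arrays, so none could be left out there, and the promoter search was not run. The array's resolution limits the 105 members that were dim in both second repeats, for which the fold is poorly fixed.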
